A study of Saccharomyces cerevisiae with 12 samples.

Results

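The question here was which genes of Saccharomyces cerevisiae had a difference between the evolved α-amylase producer B184 and its ancestor AAC that changed with the dilution rate. The strain effect is the log2 level in B184 minus that in AAC, and its rate dependence is the strain effect at 0.2/h minus the strain effect at 0.1/h. The rule took all genes that passed a filter on low counts in 8 of the 12 libraries of the series, which were 5980 of 7126 genes. Of these, 226 (3.78%) had a rate dependence at an adjusted p under 0.05 in edgeR's quasi-likelihood test, with 132 (2.21%) having a higher strain effect at 0.2/h and 94 (1.57%) a lower one.

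The groups were B184 at 0.2/h, AAC at 0.2/h, B184 at 0.1/h, and AAC at 0.1/h, each as biological duplicates from carbon-limited chemostats on glucose, in which the inflow of medium sets the growth rate. AAC carries α-amylase on a POT1-type plasmid in a CEN.PK strain that lacks its own TPI1 (triose phosphate isomerase), and the descendants share this deletion and plasmid. UV mutagenesis of AAC gave MH34, and further mutagenesis of MH34 gave B184, so each evolved strain is a single isolate. The study's methods name an addition of ethanol to the B184 and MH34 cultures at 0.1/h and name none for AAC, so an effect of that ethanol cannot be told apart from the rate dependence of the strain effect.

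Yeast that senses glucose shuts off genes for poorer carbon sources, a control called glucose repression. When glucose runs low, ethanol is oxidized through acetaldehyde to acetate, and fatty acids are shortened by β-oxidation in the peroxisome. The cell also reduces copper and iron at its surface before taking them up, and it builds methionine and cysteine from sulfate, with both sets of genes turned on by shortage.

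The 8 libraries held 6040221 to 10785960 counts. Levels are given as CPM, read counts divided by the library's total after TMM scaling (the trimmed mean of M values) and set to one common size, and standard errors (SE) are on the log2 scale. Cytosolic ribosomal protein genes, whose mRNA is known to follow the growth rate, summed to 95367 and 95499 CPM in B184 and 89555 and 95116 CPM in AAC at 0.2/h, against 32970 and 32898 CPM in B184 and 38477 and 30738 CPM in AAC at 0.1/h. All 4 libraries at 0.2/h thus lay above all 4 at 0.1/h, as their labels say. TPI1 retained 17.4 to 92.5 CPM over these libraries, and its rate dependence of −0.15 (SE 0.20, adjusted p = 0.72) did not pass the test. The duplicates of AAC at 0.1/h differed most (SD of their log2 difference 0.327), and those of B184 at 0.2/h least (0.106). Replicate 1 of AAC at 0.1/h and replicate 2 of B184 at 0.2/h also stood apart in mitochondrial 15S rRNA, with 125 and 132 counts where the other 6 libraries had 3 to 14. Without both libraries 399 genes passed the test, and the part of these libraries in single results was not tested beyond the values given with them.

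**Figure D1:**
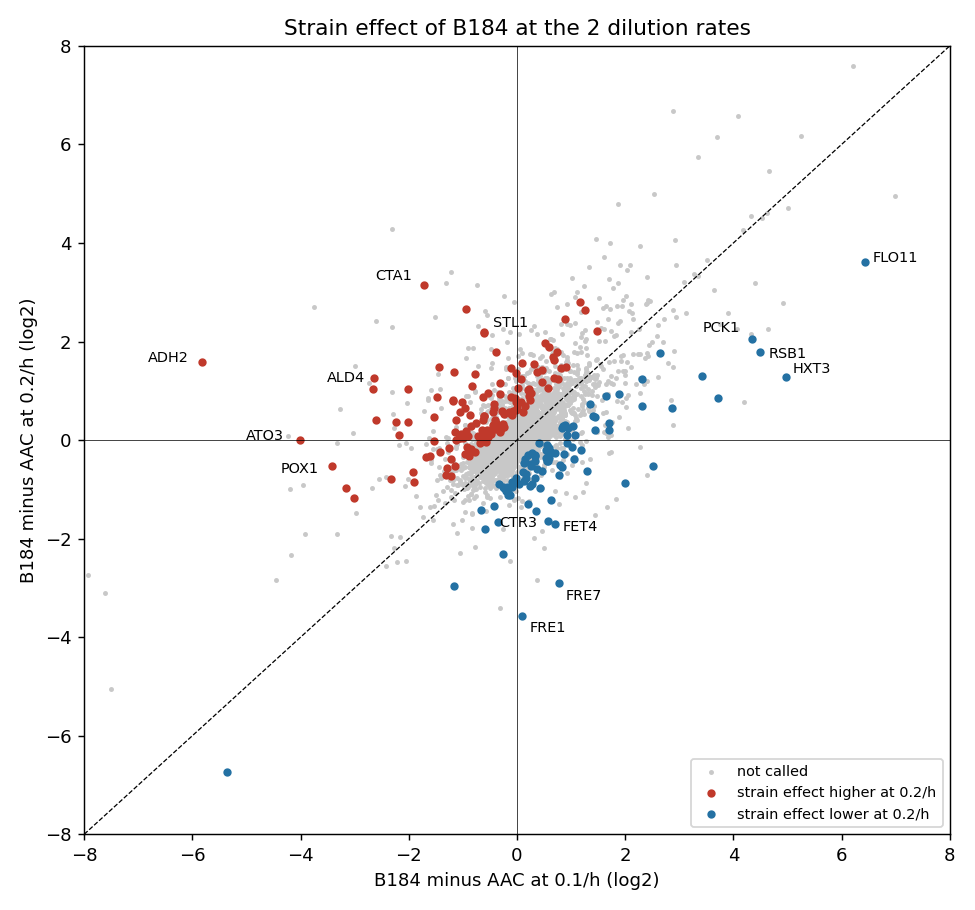
Each point is 1 of 5980 genes, with the strain effect (B184 minus AAC, log2) at 0.1/h on the x axis and at 0.2/h on the y axis. The dashed line marks equal strain effects. The 132 red genes lie above it and the 94 blue genes below it, with ADH2 (7.40) and FRE7 (−3.68) farthest from 0 in each direction among genes that averaged 50 counts or more.

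The strain effect itself passed the test in 1835 genes (30.7%) at 0.2/h and in 1906 (31.9%) at 0.1/h. Among these 226, 73 passed the strain test at 0.1/h but not at 0.2/h, and 65 passed at 0.2/h but not at 0.1/h. A further 35 passed at both rates with opposite signs, 23 with one sign and a larger effect at 0.2/h, and 30 with one sign and a smaller effect at 0.2/h. Within the strains, 3896 genes (65.2%) responded to the rate in B184 and 3993 (66.8%) in AAC. The called genes divided into 72 whose rate response passed in AAC but not in B184, 57 in B184 but not in AAC, 47 in both with opposite signs, and 50 in both with one sign.

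In all 226 genes every B184 minus AAC difference at 0.2/h lay on one side of every such difference at 0.1/h, as it did in 37.6% of all genes tested. Leaving out 1 library can therefore hardly reverse the sign of these genes, so an unchanged sign is no separate support. The count itself depended strongly on single libraries. It was 29 and 28 without replicate 1 or 2 of B184 at 0.2/h, 68 and 45 without replicate 1 or 2 of B184 at 0.1/h, and 152 and 140 without replicate 1 or 2 of AAC at 0.2/h. Leaving out AAC at 0.1/h instead gave 812 calls (replicate 1) and 367 (replicate 2). None of the 226 genes changed sign in those 8 fits or in 9 other settings where it had a value (220 of them had one with at least 10 counts required in every library), and 24 of them, 9 higher and 15 lower, passed in all 17. These 24 were FRE7, HXT3, FRE1, RSB1, FET4, CTR3, YJL218W, CTR1, AHP1, SUL2, YNL234W, REE1, ATG41, YNL134C, and MET3 with a lower strain effect at 0.2/h, and STL1, FAA2, NCA3, PHO84, SPS19, SPI1, SSU1, PEX11, and DIP5 with a higher one.

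**Figure D2:**
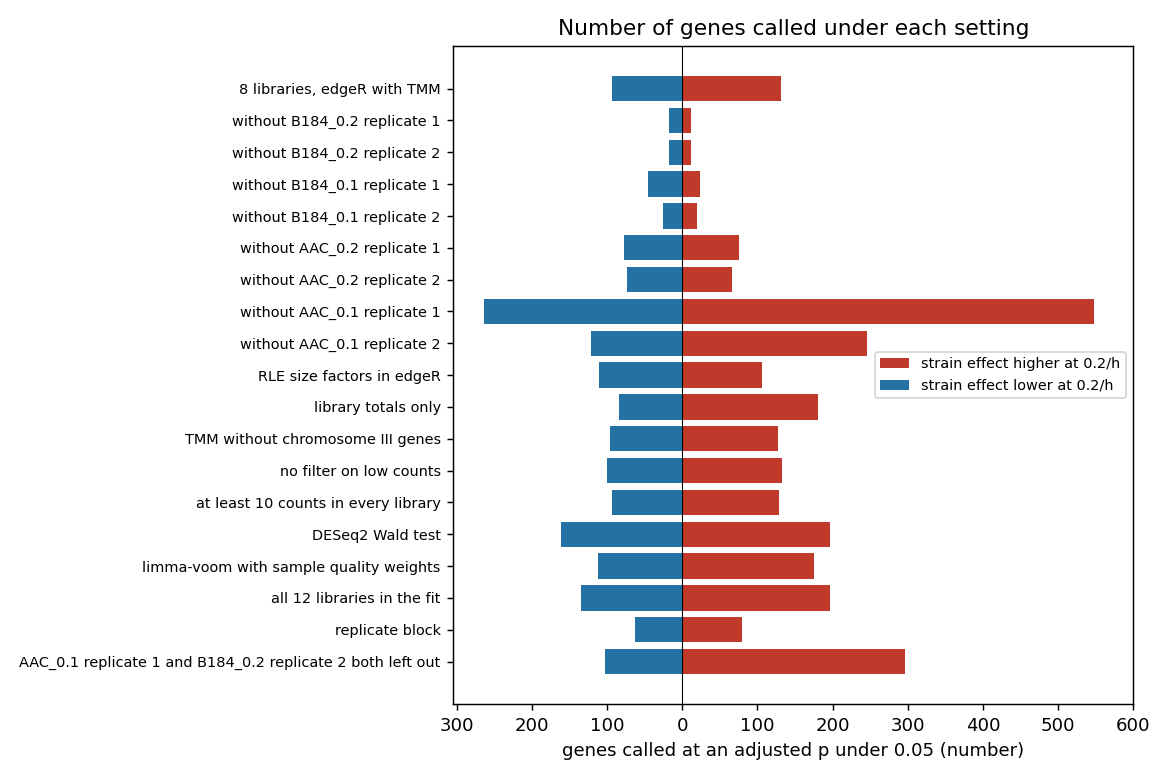
Bars give the number of genes called under each setting, with a higher strain effect at 0.2/h to the right and a lower one to the left of 0. The 8 libraries gave 132 and 94, and the settings without 1 library ran between 28 and 812 genes in all.

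Short upstream sequences are shown in 3 sets, as examples picked from the called genes with a match. Each is 30 bases of the R64 reference genome, read 5′ to 3′ on the strand of the gene, with the searched letters or their reverse complement in capitals. Windows of 500 bases before the annotated start were searched on both strands. The strains are of CEN.PK origin, and their own upstream sequences, which may differ from R64, were not searched. In the first set, GCGGGG, the core bound by the glucose repressor Mig1, was found in 24 of 126 windows of genes with a higher strain effect at 0.2/h and 3.37% of 89 windows of genes with a lower one, against 5.72% of all 5679 windows. ALD4 (chrXV:1039543-1039572), ICL2 (chrXVI:569224-569253), YER121W (chrV:402187-402216), HXT2 (chrXIII:287646-287675), and MMP1 (chrXII:17830-17859) were among the 24 genes. ADH2, ATO3, CTA1, POX1, FOX2, FAA2, SPS19, PEX11, and STL1, described below, had no match.
ALD4: gctggtatgattCCCCGCccgggcgacggt
ICL2: ccgaatatgcttGCGGGGaaagaaataaaa
YER121W: aaccataacaatGCGGGGtctactaaatga
HXT2: atccggagaaaaGCGGGGtcttttaactca
MMP1: cattaactttttGCGGGGatagcgaagaga

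In the second set, CACGTG, the core bound by Cbf1, a regulator of sulfur genes, was found before 21 of the 30 sulfate and methionine genes and before 7 of the 10 of them with a lower strain effect at 0.2/h, against 6.29% of all windows. It was in 15.7% of the windows of all lower genes and in 9.52% of those of all higher genes. The copies nearest the start are shown for SUL2 (chrXII:323224-323253), MET3 (chrX:455867-455896), MET10 (chrVI:213069-213098), MET2 (chrXIV:116984-117013), and MET16 (chrXVI:877793-877822).
SUL2: gccgtgtcaggtCACGTGaagagagaaatt
MET3: gaccagaaaagtCACGTGtaattttgtaac
MET10: agcttatagaagCACGTGaccacaattcac
MET2: ttgacgtattttCACGTGatgcgcctcact
MET16: ttatcatcatttCACGTGgctagtaaaaga

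In the third set, TTTGCTC, part of the element bound by the copper sensor Mac1, was searched after the copper genes had been seen among the lower ones. It was found in 7.87% of the windows of lower genes, 7.94% of those of higher genes, and 8.79% of all windows. FRE1 had 3 copies and CTR1 2, and those nearest the start lie at chrXII:568460-568489 and chrXVI:785886-785915. The copper genes FRE7, CTR3, REE1, and CCC2, described below, had no match in the R64 windows, which does not show that these strains lack the element there.
FRE1: ttttgaagtcgTTTGCTCtcttccatgctt
CTR1: gacggtaaaatGAGCAAAaatggcacgatc
The other planned letters are given as shares without a test. AGGGG (Msn2 and Msn4) was in 41.3% of higher, 33.7% of lower, and 34.5% of all windows, CCAAT (Hap2/3/4/5) in 61.9%, 56.2%, and 62.7%, TGACTC (Gcn4) in 15.1%, 15.7%, and 12.9%, TCGTATA (Upc2) in 11.1%, 5.62%, and 6.96%, and GATGAG (ribosome biogenesis) in 31.0%, 24.7%, and 28.0%.

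The greatest rate dependence was that of ADH2 (chrXIII:873291-874337 on R64), the alcohol dehydrogenase that oxidizes ethanol. ADH2 had 20.9 and 29.4 CPM in B184 and 13.02 and 3.72 CPM in AAC at 0.2/h, against 11.9 and 10.9 CPM in B184 and 397 and 894 CPM in AAC at 0.1/h. The high value was thus that of AAC at 0.1/h, and the other 6 libraries stayed low. Its strain effect was 1.59 (SE 0.69, adjusted p = 0.14) at 0.2/h and −5.82 (SE 0.66, adjusted p = 0.0024) at 0.1/h, a rate dependence of 7.40 (SE 0.94, adjusted p = 0.0233). The ethanol named for B184 at 0.1/h cannot be told apart from this difference. ADH2 passed in 4 of the 8 fits without 1 library, and its adjusted p reached 0.122 without replicate 2 of B184 at 0.2/h.

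ALD4, the mitochondrial aldehyde dehydrogenase that makes acetate, had the same order of groups. It had 1568 and 1626 CPM in B184 and 1040 and 518 CPM in AAC at 0.2/h, against 922 and 1023 CPM in B184 and 4702 and 7538 CPM in AAC at 0.1/h, a rate dependence of 3.69 (SE 0.50, adjusted p = 0.015). ATO3, a membrane protein of the ammonium and acetate transporter family, had 73.1 and 79.7 CPM in B184 and 92.7 and 59.4 CPM in AAC at 0.2/h, against 19.6 and 23.5 CPM in B184 and 262 and 428 CPM in AAC at 0.1/h. Its strain effects of 0.01 at 0.2/h and −4.004 at 0.1/h gave a rate dependence of 4.01 (SE 0.45, adjusted p = 0.0137). ALD4 passed in 3 and ATO3 in 4 of the 8 fits without 1 library.

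Of the 22 genes listed for ethanol use, gluconeogenesis, and the glyoxylate cycle, 4 had a higher strain effect at 0.2/h (ADH2, ATO3, ALD4, and ICL2) and 3 a lower one (PCK1, ICL1, and CIT2). The called genes were 31.8% of the list, and the share over all genes tested, 3.78%, applies to each list below. The median rate dependence of the list was 0.63, against 0.04 over all genes tested. The 3 lower genes act in glucose synthesis and the glyoxylate cycle, but they do not stand for these routes as a whole. Of the 22 values of the list, 15 were above 0. PCK1, the enzyme that commits carbon to glucose synthesis, had 94.2 and 125 CPM in B184 and 27.8 and 25.3 CPM in AAC at 0.2/h, against 691 and 551 CPM in B184 and 23.1 and 37.8 CPM in AAC at 0.1/h. It was above AAC in every B184 library, with strain effects of 2.05 at 0.2/h and 4.34 at 0.1/h and a rate dependence of −2.29 (SE 0.35, adjusted p = 0.0234). ICL1, the isocitrate lyase of the glyoxylate cycle, had 236 and 263 CPM in B184 and 106 and 97.7 CPM in AAC at 0.2/h, against 1128 and 1071 CPM in B184 and 72.9 and 133 CPM in AAC at 0.1/h, a rate dependence of −2.12 (SE 0.34, adjusted p = 0.0249). PCK1 and ICL1 each passed in 2 of the 8 fits without 1 library. The list held no called gene without any 1 of the 4 B184 libraries and 15 without replicate 1 of AAC at 0.1/h.

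Other genes of the list had large values with wide errors. ACS1, an acetyl-CoA synthetase, had a rate dependence of 3.20 (SE 0.77, adjusted p = 0.0985), and its duplicates in AAC at 0.1/h were 250 and 741 CPM. ADY2, an acetate transporter, had a rate dependence of 4.02 (SE 1.28, adjusted p = 0.169), with 54.6 and 258 CPM in the same pair. Neither passed the test.

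**Figure D3:**
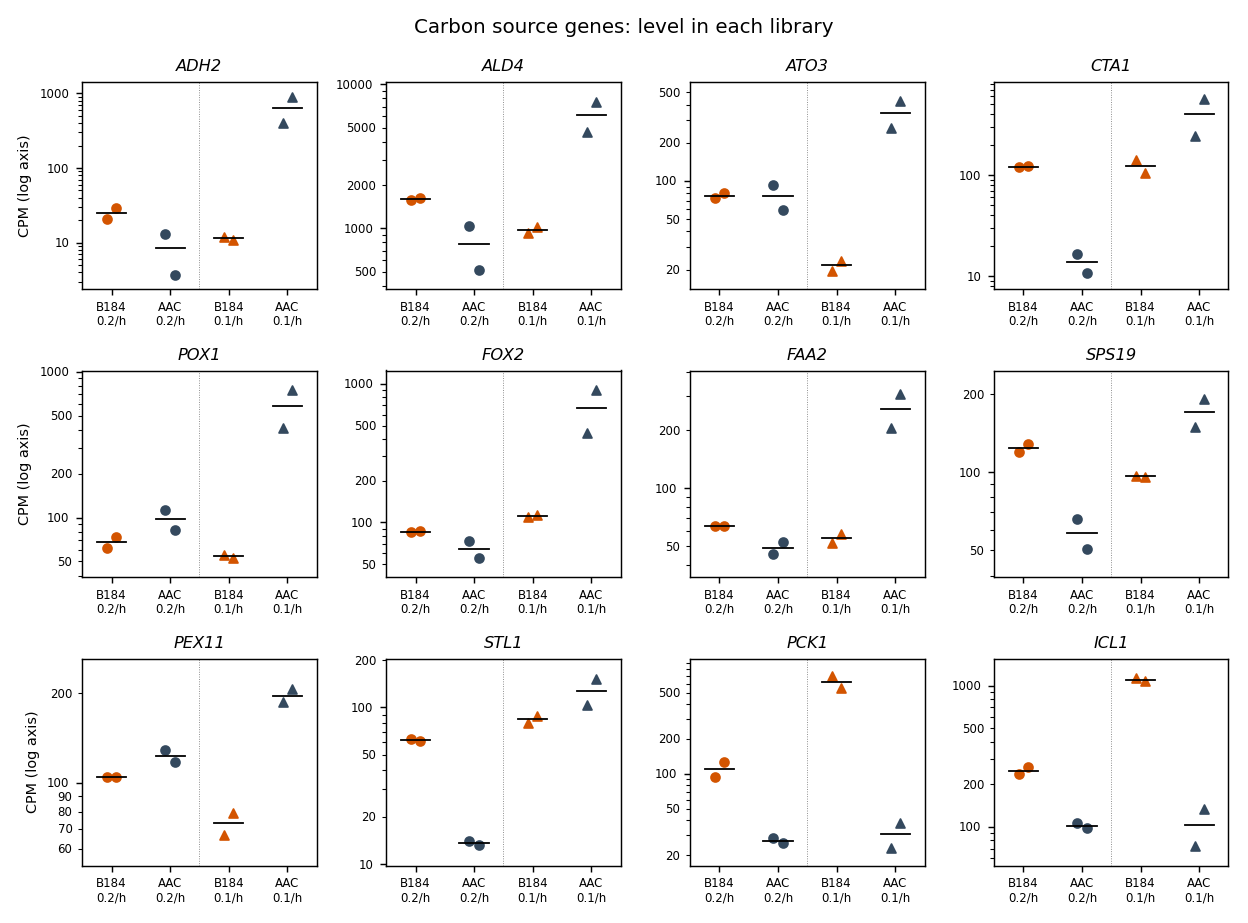
Each panel gives the level of 1 gene in CPM on a log axis, with a point for each of the 2 libraries of a group, a bar for their mean, B184 in orange, AAC in blue, circles for 0.2/h, and triangles for 0.1/h. In ADH2, ALD4, ATO3, CTA1, POX1, FOX2, FAA2, SPS19, PEX11, and STL1 the 2 libraries of AAC at 0.1/h are the highest of the 8, and in PCK1 and ICL1 those of B184 at 0.1/h are.

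Of 24 tested genes of fatty acid oxidation, the peroxisome, and the carnitine shuttle, 9 had a higher strain effect at 0.2/h (CTA1, FOX2, POX1, FAA2, IDP3, SPS19, TES1, ECI1, and PEX11) and 1 a lower one (YAT2, a carnitine acetyltransferase), and 14 did not pass. The median of the list was 1.16, and 17 of the 24 values were above 0. POX1, the acyl-CoA oxidase of the first step, had 62.0 and 73.4 CPM in B184 and 113 and 81.6 CPM in AAC at 0.2/h, against 55.7 and 53.2 CPM in B184 and 412 and 745 CPM in AAC at 0.1/h. FOX2, the enzyme of the second and the third step, had 85.3 and 86.7 CPM in B184 and 73.9 and 55.3 CPM in AAC at 0.2/h, against 110 and 113 CPM in B184 and 442 and 907 CPM in AAC at 0.1/h. Both were far higher in AAC at 0.1/h than in any other library, and their rate dependence was 2.89 (SE 0.45, adjusted p = 0.0343) for POX1 and 3.01 (SE 0.50, adjusted p = 0.0416) for FOX2. POT1, the thiolase of the last step, had 147 and 162 CPM in B184 and 29.2 and 15.2 CPM in AAC at 0.2/h, against 171 and 165 CPM in B184 and 115 and 233 CPM in AAC at 0.1/h. Its value of 2.86 (SE 0.58, adjusted p = 0.0695) did not pass.

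CTA1, the peroxisomal catalase (chrIV:968133-969680), had strain effects of opposite sign. It had 120 and 122 CPM in B184 and 16.5 and 10.8 CPM in AAC at 0.2/h, against 140 and 106 CPM in B184 and 244 and 565 CPM in AAC at 0.1/h. B184 thus had about the same level at both rates, with a rate response of −0.02 (SE 0.42), where AAC fell by 4.89 on the log2 scale at the faster rate (SE 0.51, adjusted p = 5.2e-04). The rate dependence was 4.87 (SE 0.65, adjusted p = 0.0271), and it passed in 2 of the 8 fits without 1 library, with an adjusted p of up to 0.131 without replicate 2 of B184 at 0.2/h.

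The calls for FAA2, SPS19, and PEX11 held without any 1 library. FAA2, which activates fatty acids inside the peroxisome, had 63.9 and 63.7 CPM in B184 and 45.5 and 52.8 CPM in AAC at 0.2/h, against 52.1 and 58.2 CPM in B184 and 207 and 309 CPM in AAC at 0.1/h. Its rate dependence was 2.60 (SE 0.26, adjusted p = 0.0034), and its reading frame overlaps that of BUD25, so reads of these 2 genes may not be told apart. SPS19, a reductase needed for unsaturated fatty acids, had 120 and 129 CPM in B184 and 65.8 and 50.5 CPM in AAC at 0.2/h, against 97.1 and 95.8 CPM in B184 and 149 and 192 CPM in AAC at 0.1/h. B184 was above AAC at 0.2/h and below it at 0.1/h in every library, a rate dependence of 1.92 (SE 0.21, adjusted p = 0.0034). PEX11, which drives peroxisomes to divide, had 105 and 105 CPM in B184 and 129 and 117 CPM in AAC at 0.2/h, against 66.8 and 79.3 CPM in B184 and 186 and 206 CPM in AAC at 0.1/h. Its rate dependence was 1.19 (SE 0.14, adjusted p = 0.0047).

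The other called genes of the list were IDP3 (peroxisomal isocitrate dehydrogenase, 2.28), TES1 (a thioesterase, 1.34), and ECI1 (an isomerase, 1.28), each with AAC at 0.1/h highest. The number of called members was 3 to 4 without 1 B184 library, 5 and 7 without replicate 1 or 2 of AAC at 0.2/h, and 16 in the fit that left out replicate 1 of AAC at 0.1/h. The median was 0.55 without replicate 2 of AAC at 0.1/h and was 0.92 or more in the other fits.

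Genes of glycerol metabolism and the tricarboxylic acid cycle were also called. STL1, the glycerol importer, had 62.5 and 61.3 CPM in B184 and 14.03 and 13.2 CPM in AAC at 0.2/h, against 79.8 and 87.9 CPM in B184 and 104 and 151 CPM in AAC at 0.1/h. B184 was above AAC at 0.2/h and below it at 0.1/h, with a rate dependence of 2.79 (SE 0.24, adjusted p = 0.0014). GPD2, which makes glycerol 3-phosphate, had a rate dependence of 0.83 (SE 0.11, adjusted p = 0.0075), and 2 of the 12 glycerol genes were called, both higher. NCA3, a protein of the SUN family that is in none of the lists, had 87.1 and 81.7 CPM in B184 and 51.5 and 40.1 CPM in AAC at 0.2/h, against 72.5 and 85.4 CPM in B184 and 189 and 248 CPM in AAC at 0.1/h (2.35, SE 0.23, adjusted p = 0.0024). In the tricarboxylic acid cycle 2 of 20 genes were higher (CIT3, a minor mitochondrial citrate synthase, 2.93, and LSC1, a subunit of succinyl-CoA ligase, 0.81) and 1 lower (IDH2, a subunit of isocitrate dehydrogenase, −0.99).

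HXT3, a low-affinity glucose transporter (chrIV:1162957-1164660), had 1686 and 1671 CPM in B184 and 613 and 761 CPM in AAC at 0.2/h, against 1388 and 1231 CPM in B184 and 55.1 and 29.1 CPM in AAC at 0.1/h. B184 had a similar level at both rates, with a rate response of 0.36 (SE 0.24, adjusted p = 0.22), where AAC rose by 4.04 at the faster rate (SE 0.28, adjusted p = 1.5e-05). The strain effect was 1.29 at 0.2/h and 4.97 at 0.1/h, and the rate dependence of −3.68 (SE 0.36, adjusted p = 0.0034) passed without any 1 library. HXT2, a high-affinity transporter, went the other way, with 1915 and 2022 CPM in B184 and 838 and 1052 CPM in AAC at 0.2/h, against 497.5 and 460.5 CPM in B184 and 524 and 428 CPM in AAC at 0.1/h. The strains overlapped at 0.1/h and not at 0.2/h, and its rate dependence was 1.05 (SE 0.20, adjusted p = 0.0297). These were the 2 called genes among 15 hexose transporters tested (13.3%, against 3.78% of all genes tested). The median of that list was 0.92, and 11 of its 15 values were above 0, so the sign of HXT3 was not that of most members. HXT7 did not pass (1.99, SE 0.44, adjusted p = 0.0807), and it shares most of its sequence with HXT6.

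In glycolysis 2 of 17 genes were called (11.8%, against 3.78% of all genes tested), both with a higher strain effect at 0.2/h. TDH2, a glyceraldehyde phosphate dehydrogenase, had 1216 and 1210 CPM in B184 and 2577 and 1640 CPM in AAC at 0.2/h, against 259 and 321 CPM in B184 and 1490 and 1422 CPM in AAC at 0.1/h. Its rate dependence was 1.53 (SE 0.28, adjusted p = 0.0266), and reads shared with TDH3, which is 95.8% identical, make it uncertain. FBA1, the aldolase, had a rate dependence of 1.10 (SE 0.24, adjusted p = 0.0442). By edgeR 0 genes were called among 11 of the pentose phosphate pathway, 15 of glycogen metabolism, and 8 of trehalose metabolism, whose medians were 0.43, 0.56, and 0.66. In each of these lists 3 genes had an unadjusted p under 0.05, and DESeq2 called 1.

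Beside HXT3, the most negative values among genes that averaged 50 counts or more were those of the metal reductases FRE7 and FRE1. FLO11 (−2.83) and RSB1 (−2.71) followed, ahead of FET4, CTR3, and CTR1 of copper and iron uptake. FRE1 (chrXII:568567-570627), a surface reductase for copper and iron, had 151 and 145 CPM in B184 and 1641 and 1883 CPM in AAC at 0.2/h, against 383 and 478 CPM in B184 and 480 and 323 CPM in AAC at 0.1/h. The strains overlapped at 0.1/h, where the strain effect was 0.10 (SE 0.19, adjusted p = 0.70), and lay far apart at 0.2/h, where it was −3.57 (SE 0.20, adjusted p = 1.2e-05). FRE1 fell with the rate in B184 (−1.54) and rose with it in AAC (2.13), a rate dependence of −3.68 (SE 0.27, adjusted p = 8.8e-04). FRE7 (chrXV:40748-42610), a reductase induced by copper shortage, had 210 and 236 CPM in B184 and 1918 and 1428 CPM in AAC at 0.2/h, against 770 and 741 CPM in B184 and 513 and 374 CPM in AAC at 0.1/h. Its strain effect was −2.91 at 0.2/h and 0.77 at 0.1/h, opposite signs that both passed, with a rate dependence of −3.68 (SE 0.26, adjusted p = 8.8e-04).

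The copper importers CTR1 and CTR3 had the same order of groups at 0.2/h. CTR1, the high-affinity importer, had 778 and 820 CPM in B184 and 4276 and 3684 CPM in AAC at 0.2/h, against 986 and 981 CPM in B184 and 1302 and 1042 CPM in AAC at 0.1/h (−2.06, SE 0.19, adjusted p = 0.0019). CTR3 had 570 and 615 CPM in B184 and 1948 and 1762 CPM in AAC at 0.2/h, against 1792 and 1735 CPM in B184 and 1154 and 1204 CPM in AAC at 0.1/h. CTR3 was thus below AAC at 0.2/h and above it at 0.1/h, with a rate dependence of −2.23 (SE 0.15, adjusted p = 8.8e-04). REE1, a cytosolic protein, had a rate dependence of −1.44 (SE 0.14, adjusted p = 0.0019), and FRE1, FRE7, CTR1, CTR3, and REE1 passed without any 1 library.

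A list of 16 copper genes was drawn up after these values had been seen, so its counts are a description. Of its 14 tested members 6 were called, all lower, with CCC2, the copper pump of the Golgi (−1.17, SE 0.23, adjusted p = 0.0384), as the sixth, and the median was −0.49. MAC1, the copper sensor, had a rate dependence of 0.00 (SE 0.13), with 52.9 and 49.9 CPM in B184 and 51.9 and 57.1 CPM in AAC at 0.2/h, against 64.7 and 72.6 CPM in B184 and 74.6 and 71.2 CPM in AAC at 0.1/h. The summed level of the 14 genes was 3081 and 3259 CPM in B184 and 11533 and 10469 CPM in AAC at 0.2/h, against 5946 and 6127 CPM in B184 and 5195 and 4693 CPM in AAC at 0.1/h. It was therefore lowest in B184 at 0.2/h and highest in AAC at 0.2/h.

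Of 25 tested genes of the iron uptake regulon, 5 were called and all were lower (FRE1, FET4, HMX1, FRE6, and ISU2), the median was −0.99, and 24 of the 25 values were not above 0. FET4, a low-affinity carrier of iron and other metals, had 115 and 120 CPM in B184 and 395 and 364 CPM in AAC at 0.2/h, against 468 and 557 CPM in B184 and 361 and 269 CPM in AAC at 0.1/h. Its strain effect was −1.69 (adjusted p = 7.8e-05) at 0.2/h and 0.70 (adjusted p = 0.0063) at 0.1/h, a rate dependence of −2.40 (SE 0.20, adjusted p = 0.0014). HMX1, a heme oxygenase, had a rate dependence of −0.99 (SE 0.22, adjusted p = 0.0446), and FRE6, a vacuolar reductase, had −0.95 (SE 0.18, adjusted p = 0.0266). For other genes of iron uptake the duplicates of B184 at 0.1/h disagreed. FET3, the surface oxidase that loads the iron importer, had 343 and 369 CPM in B184 and 1141 and 1409 CPM in AAC at 0.2/h, against 545 and 1094 CPM in B184 and 682 and 514 CPM in AAC at 0.1/h (−2.30, SE 0.46, adjusted p = 0.053). FIT2, a cell wall mannoprotein that holds iron carriers, had 424 and 1669 CPM in B184 at 0.1/h and an adjusted p of 0.162. Summed over the 25 genes, replicate 1 of B184 at 0.1/h had 5015 CPM and replicate 2 9643 CPM. The number called was 11 without replicate 1 and 3 without replicate 2 of B184 at 0.1/h.

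Some zinc genes were also among the lower ones. In a list of 16 zinc genes, again drawn up after the values had been seen, 4 were lower (ZPS1, ADH4, ZRT3, and ZRG17) and 1 higher (IZH3), with a median of −0.32. ZPS1, a secreted protein induced by zinc shortage, had 2828 and 3059 CPM in B184 and 26034 and 19505 CPM in AAC at 0.2/h, against 4153 and 4698 CPM in B184 and 10740 and 9155 CPM in AAC at 0.1/h. B184 was below AAC at both rates, and more so at 0.2/h, with a rate dependence of −1.78 (SE 0.25, adjusted p = 0.0088) that passed in 5 of the 8 fits without 1 library. ZRT1 and ZRT2, the surface zinc importers, had −0.33 and −0.43 and did not pass.

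AHP1, a peroxiredoxin that reduces alkyl hydroperoxides, had 903 and 839 CPM in B184 and 1963 and 2062 CPM in AAC at 0.2/h, against 953 and 1132 CPM in B184 and 696 and 646 CPM in AAC at 0.1/h. Its strain effect was −1.21 at 0.2/h and 0.64 at 0.1/h, and the rate dependence of −1.84 (SE 0.17, adjusted p = 0.0015) passed without any 1 library. TSA1, the main cytosolic peroxiredoxin (−0.82), and GSH1, the first enzyme of glutathione synthesis (−0.71), were the other called genes among 23 of oxidative stress defence, all 3 lower, while the list's median was 0.00.

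**Figure D4:**
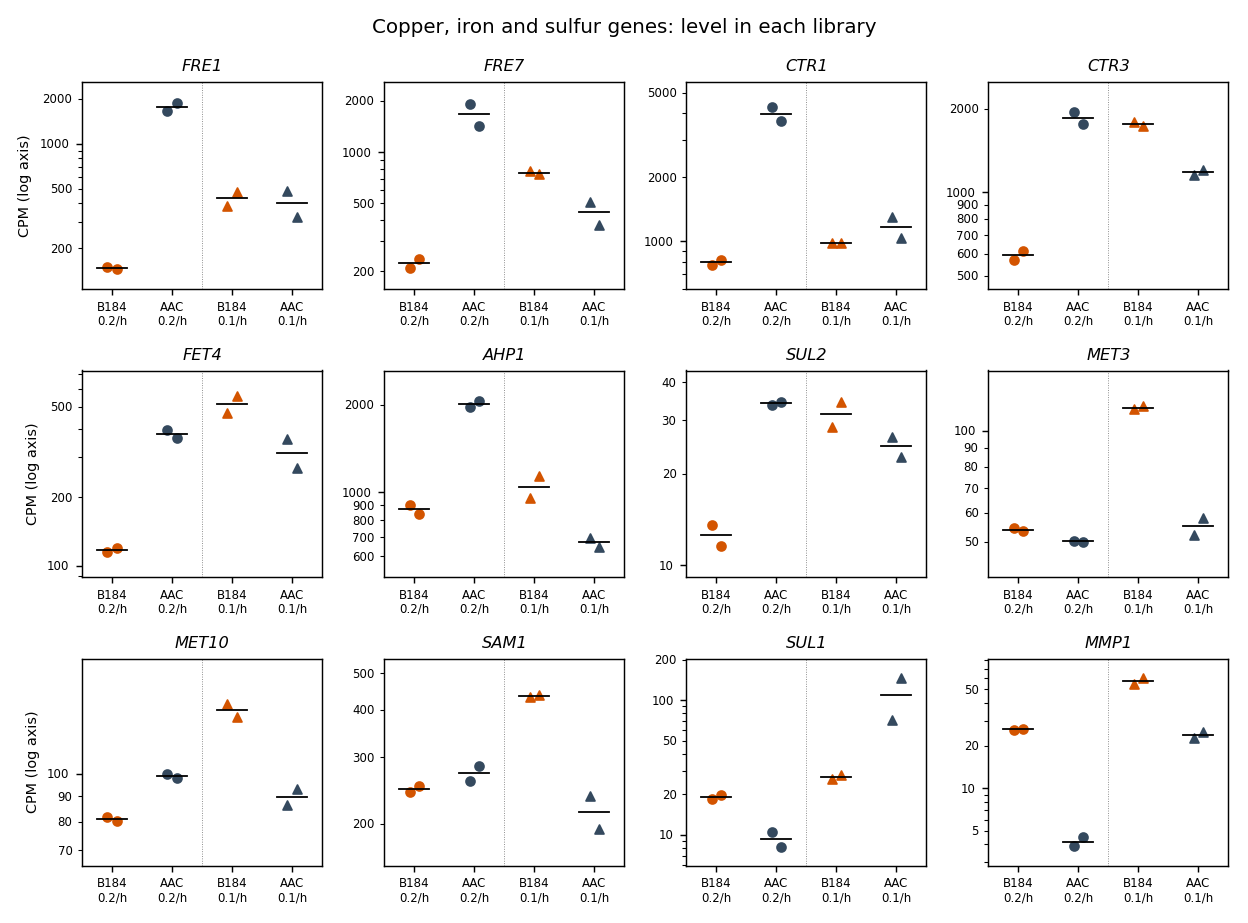
Each panel gives the level of 1 gene in CPM on a log axis, with a point for each of the 2 libraries of a group, a bar for their mean, B184 in orange, AAC in blue, circles for 0.2/h, and triangles for 0.1/h. In FRE1, FRE7, CTR1, CTR3, FET4, and SUL2 the 2 libraries of B184 at 0.2/h are the lowest of the 8, and in MET3, MET10, SAM1, and MMP1 those of B184 at 0.1/h are the highest.

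Sulfur genes formed a further group. Of 30 genes of sulfate assimilation and methionine synthesis, 10 had a lower strain effect at 0.2/h (SUL2, SAM1, MUP1, MET3, MET2, MET10, CYS3, MET16, SAM3, and MET17) and 2 a higher one (SUL1 and MMP1), and the median was −0.52. The 2 sulfate importers went in opposite directions. SUL2 (chrXII:323544-326225) had 13.6 and 11.6 CPM in B184 and 33.6 and 34.5 CPM in AAC at 0.2/h, against 28.4 and 34.4 CPM in B184 and 26.4 and 22.8 CPM in AAC at 0.1/h (−1.79, SE 0.20, adjusted p = 0.0040). SUL1 had 18.4 and 19.96 CPM in B184 and 10.6 and 8.21 CPM in AAC at 0.2/h, against 26.2 and 27.9 CPM in B184 and 71.6 and 147 CPM in AAC at 0.1/h (3.05, SE 0.53, adjusted p = 0.0407). SUL2 passed without any 1 library, and SUL1 in 2 of these 8 fits.

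Several assimilation enzymes were highest in B184 at 0.1/h. MET3, ATP sulfurylase, the first enzyme of the route, had 54.4 and 53.4 CPM in B184 and 50.4 and 50.1 CPM in AAC at 0.2/h, against 115 and 116 CPM in B184 and 52.4 and 57.9 CPM in AAC at 0.1/h. Its strain effect was 0.10 (SE 0.08, adjusted p = 0.36) at 0.2/h and 1.07 (SE 0.08, adjusted p = 4.2e-05) at 0.1/h, a rate dependence of −0.96 (SE 0.11, adjusted p = 0.0045). MET10, a subunit of sulfite reductase, had 81.9 and 80.3 CPM in B184 and 99.8 and 98.0 CPM in AAC at 0.2/h, against 139 and 131 CPM in B184 and 86.6 and 93.2 CPM in AAC at 0.1/h. Its strain effect was −0.29 at 0.2/h and 0.58 at 0.1/h, a rate dependence of −0.87 (SE 0.11, adjusted p = 0.0050). MET2, which activates homoserine, had 26.8 and 30.6 CPM in B184 and 8.35 and 8.54 CPM in AAC at 0.2/h, against 129 and 136 CPM in B184 and 19.4 and 23.03 CPM in AAC at 0.1/h (−0.88, SE 0.17, adjusted p = 0.0327). MET16 (PAPS reductase, −0.76), MET17 (the step that joins sulfide to homoserine, −0.73), and CYS3 (cystathionine γ-lyase, −0.76) were smaller. MET17 overlaps another reading frame.

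Past methionine, SAM1, an S-adenosylmethionine synthetase, had 243 and 251 CPM in B184 and 260 and 285 CPM in AAC at 0.2/h, against 432 and 437 CPM in B184 and 237 and 194 CPM in AAC at 0.1/h (−1.15, SE 0.15, adjusted p = 0.0061). MUP1, the high-affinity methionine permease, had 679 and 643 CPM in B184 and 913 and 855 CPM in AAC at 0.2/h, against 804 and 836 CPM in B184 and 570 and 534 CPM in AAC at 0.1/h (−0.99, SE 0.13, adjusted p = 0.0070). MMP1, the S-methylmethionine permease, went the other way with 25.8 and 26.3 CPM in B184 and 3.90 and 4.49 CPM in AAC at 0.2/h, against 54.1 and 59.8 CPM in B184 and 22.8 and 25.1 CPM in AAC at 0.1/h (1.38, SE 0.19, adjusted p = 0.0075). Outside the list, SSU1, the sulfite exporter, had 169 and 166 CPM in B184 and 113 and 122 CPM in AAC at 0.2/h, against 62.5 and 51.0 CPM in B184 and 95.8 and 112 CPM in AAC at 0.1/h (1.38, SE 0.16, adjusted p = 0.0045). YCT1, a cysteine transporter, had 55.4 and 52.7 CPM in B184 and 21.6 and 23.9 CPM in AAC at 0.2/h, against 121 and 115 CPM in B184 and 23.9 and 23.7 CPM in AAC at 0.1/h (−1.06, SE 0.13, adjusted p = 0.0047). The regulators MET4, MET28, and MET32 had values of −0.01, −0.02, and −0.01 and did not pass. The number of called genes in the list was 2 without either library of B184 at 0.2/h, 5 to 7 without 1 library of B184 at 0.1/h or AAC at 0.2/h, and 17 without replicate 1 of AAC at 0.1/h.

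Of the other transporters, PHO84, the phosphate importer, had 503 and 534 CPM in B184 and 785 and 1247 CPM in AAC at 0.2/h, against 77.6 and 84.8 CPM in B184 and 701 and 752 CPM in AAC at 0.1/h (2.19, SE 0.27, adjusted p = 0.0061). It was the 1 called gene of 21 for phosphate uptake (4.76%, close to the 3.78% of all genes tested), and an annotated noncoding RNA overlaps all of it. Of 17 genes in the list of amino acid and peptide permeases, 3 were higher (BAP2, DIP5, and AGP1) and 2 lower (AGP3 and TPO1, which exports polyamines and not amino acids). DIP5, the dicarboxylic amino acid permease, had 275 and 298 CPM in B184 and 256 and 252 CPM in AAC at 0.2/h, against 91.1 and 82.5 CPM in B184 and 155 and 180 CPM in AAC at 0.1/h (1.12, SE 0.13, adjusted p = 0.0047). RSB1, which exports long-chain bases, had 19.02 and 21.6 CPM in B184 and 6.79 and 5.03 CPM in AAC at 0.2/h, against 58.5 and 63.2 CPM in B184 and 2.39 and 2.96 CPM in AAC at 0.1/h. It fell with the rate in B184 (−1.58) and rose in AAC (1.13), a rate dependence of −2.71 (SE 0.28, adjusted p = 0.0026).

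At the cell surface, FLO11 (chrIX:389572-393675), the flocculin of biofilm growth, had 165 and 213 CPM in B184 and 16.03 and 14.9 CPM in AAC at 0.2/h, against 4866 and 7690 CPM in B184 and 67.3 and 77.4 CPM in AAC at 0.1/h. B184 exceeded AAC at both rates, with strain effects of 3.61 (SE 0.25) and 6.44 (SE 0.27), and the rate dependence was −2.83 (SE 0.33, adjusted p = 0.0047). That call was lost with all 12 libraries in the edgeR fit (−2.84, adjusted p = 0.366) and with limma-voom and sample weights (−2.81, adjusted p = 0.0585). The fit of 12 libraries also holds the MH34 duplicates at 0.2/h, which had 819 and 32.0 CPM of FLO11. Their part in the lost call was not tested. SPI1, a wall protein induced in stationary phase, had 107 and 113 CPM in B184 and 20.8 and 18.9 CPM in AAC at 0.2/h, against 185 and 197 CPM in B184 and 95.6 and 111 CPM in AAC at 0.1/h (1.58, SE 0.14, adjusted p = 0.0014). CSS1, a secreted protein, had 8.01 and 9.42 CPM in B184 and 1046 and 800 CPM in AAC at 0.2/h, against 21.9 and 33.8 CPM in B184 and 1186 and 1107 CPM in AAC at 0.1/h (−1.36, SE 0.30, adjusted p = 0.0482). Of 29 cell wall and flocculation genes 3 were higher (TIP1, SPI1, and CWP1) and 2 lower (FLO11 and CSS1). The median of this list was −0.33, and 5 of its 29 values were above 0.

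**Figure D5:**
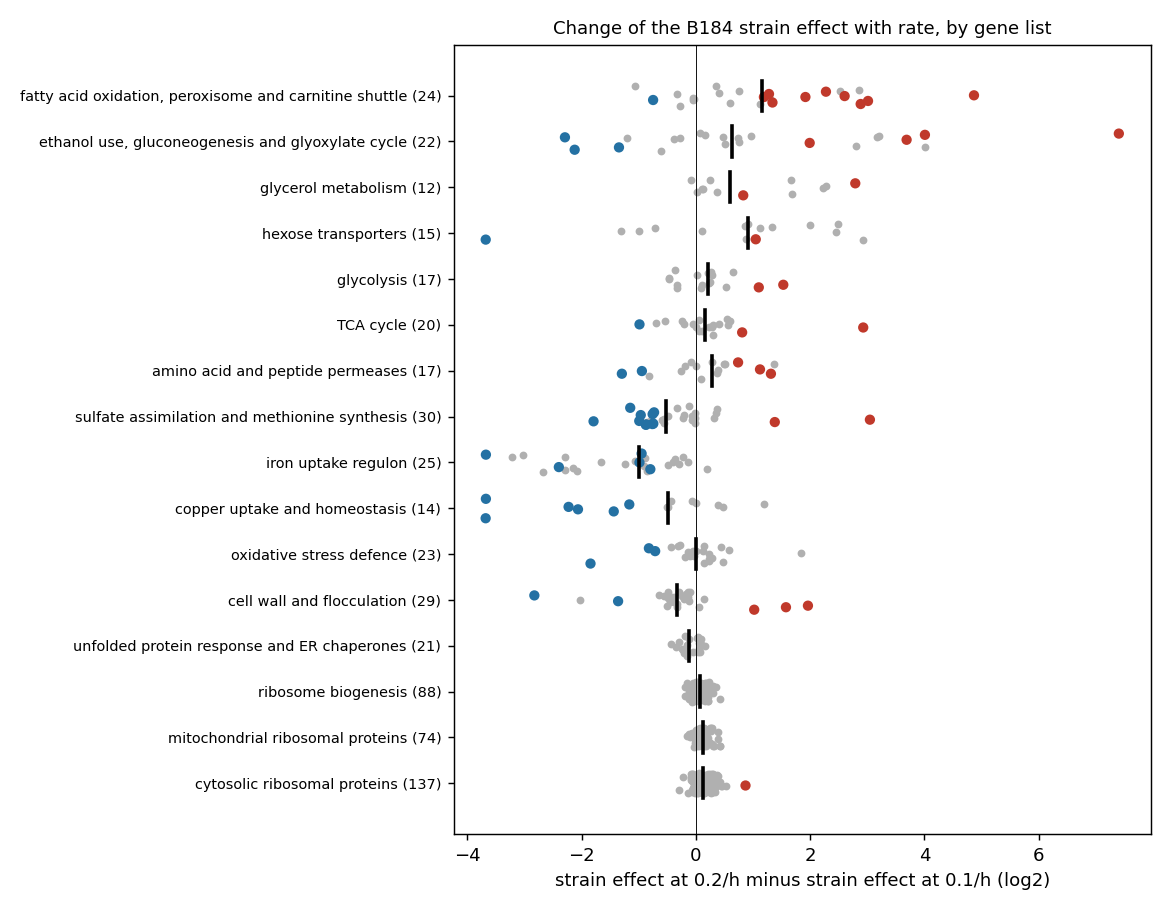
Each point is 1 gene of a list, placed by its rate dependence on the x axis (strain effect at 0.2/h minus that at 0.1/h, log2). Red and blue points passed the test, the black bar is the list's median, and the number tested stands in parentheses. Fatty acid oxidation has the highest median (1.16) and the iron uptake regulon the lowest (−0.99) of the lists drawn, while the 137 cytosolic ribosomal protein genes have 1 called member.

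Lists tied to growth and secretion are set beside the 3.78% called over all genes tested. For the shorter lists, 0 calls do not stand apart from that share. Cytosolic ribosomal protein genes had 1 of 137 called (RPL43B, 0.85, SE 0.15, adjusted p = 0.0235) with a median of 0.12, and edgeR called 0 of 88 genes of ribosome biogenesis (median 0.08) and 0 of 74 mitochondrial ribosomal protein genes (0.12). Of the 21 genes of the unfolded protein response and the chaperones of the endoplasmic reticulum (ER), edgeR called 0, and their median was −0.12. DESeq2 also called 0 in these last 3 lists, and 1, 4, and 1 of their genes had an unadjusted p under 0.05. In the secretory subsystems, OCH1, the mannosyltransferase that starts outer chains (−0.74, SE 0.11, adjusted p = 0.0114), and MNN1, an α-1,3-mannosyltransferase (−0.96, SE 0.14, adjusted p = 0.0088), were the called genes, both lower. OCH1 was the 1 called of 17 genes the study lists for ER-associated degradation, and MNN1 the 1 of 11 for Golgi processing. PDI1, the disulfide isomerase, had 3065 and 2901 CPM in B184 and 1818 and 2123 CPM in AAC at 0.2/h, against 2626 and 2758 CPM in B184 and 1626 and 1450 CPM in AAC at 0.1/h (−0.21, SE 0.17, adjusted p = 0.56). CWH41, the glucosidase that trims the first glucose of N-glycans, had 156 and 152 CPM in B184 and 199 and 212 CPM in AAC at 0.2/h, against 191 and 161 CPM in B184 and 174 and 163 CPM in AAC at 0.1/h (−0.48, SE 0.13, adjusted p = 0.0909). Among other lists, edgeR called 2 of 43 amino acid synthesis genes under Gcn4 (ARO4 and LYS4, both higher), 1 of 39 of the respiratory chain (COX5B, higher), 0 of 26 of ergosterol synthesis, 0 of 36 of the proteasome, 0 of 30 under nitrogen catabolite repression, and 0 of 24 of thiamine. In those 4 lists with 0 calls, 9, 3, 10, and 6 genes had an unadjusted p under 0.05, and DESeq2 called 0, 0, 6, and 3. On chromosome III, where B184 was above AAC at 0.2/h by a median of 0.97, the median rate dependence of 150 genes was 0.09, with 8 higher and 2 lower.

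For the other evolved strain, MH34, a fit of all 12 libraries gave the same 2 contrasts against AAC, so the values of both strains share the AAC libraries. In that fit, 332 of 6044 genes (5.49%) had a rate dependence of the B184 effect and 3212 (53.1%) one of the MH34 effect. The rate response of B184 differed from that of MH34, a contrast in which AAC cancels, in 3134 genes (51.9%). Summed cytosolic ribosomal protein genes had 93358 and 94765 CPM in MH34 at 0.2/h and 69665 and 72725 CPM at 0.1/h, so that MH34 was well above B184 at 0.1/h and close to it at 0.2/h. The MH34 sums at 0.1/h lay nearer to the sums at 0.2/h than to those of B184 and AAC at 0.1/h. The labels were kept as given, and every MH34 contrast rests on these libraries. Of the 226 genes called for B184, 116 also differed between the rate responses of B184 and MH34, a share close to the 51.9% of all genes.

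Among the genes described above, ADH2, CTA1, FAA2, STL1, and HXT3 had rate dependences in MH34 of 6.55, 4.59, 2.74, 2.63, and −3.83, and the B184 minus MH34 values of 0.84, 0.27, −0.15, 0.15, and 0.14 did not pass (SE 0.24 to 1.06). FRE7 had −1.91 in MH34, and the rate response of B184 minus that of MH34 was −1.79 (SE 0.29, adjusted p = 6.6e-04), while FRE7's level was higher in B184 than in MH34 at both rates. The same difference of rate responses was −0.89 for FRE1, −1.15 for FET4, and −0.79 for CTR3, whose rate dependences in MH34 were −2.80, −1.26, and −1.46. CTR1 had −1.95 in MH34, and its difference of −0.13 (SE 0.18, adjusted p = 0.57 by edgeR's test) did not pass. The iron uptake list had a median of −0.99 for the B184 effect and −0.98 for the MH34 effect. SUL2 had −3.50 in MH34, with a difference of rate responses of 1.70 (SE 0.28, adjusted p = 6.6e-04). PCK1 had −4.34 and ICL1 −3.58 in MH34, with differences of 2.03 and 1.45.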

How the data were processed

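RNA of S. cerevisiae strains from chemostats was sequenced in biological duplicates. The deposited table holds whole-number read counts per gene, which the authors made without normalization; the submitters' processing notes name TopHat2 2.0.12, Cufflinks 2.2.1, Subread 1.4.6, and genome build R64, while the paper names an nf-core pipeline. The kit is stranded, but the strand setting of the counting and the treatment of reads with several matches are not given in the sources used here, so overlapping and near-identical genes are uncertain. Counts of 8 libraries (6040221 to 10785960 in total) were filtered by filterByExpr, scaled by TMM, and fitted with 1 mean per group in edgeR 4.0.16 (R 4.3.3, glmQLFit with robust estimation, glmQLFTest), with 4 residual degrees of freedom and Benjamini-Hochberg adjustment over 5980 genes. Each SE is the absolute log2 value divided by the square root of the test's F statistic, so it is no evidence apart from the p-value. The median SE of the rate dependence was 0.149, and 1198 genes had an unadjusted p under 0.05. Each p-value sets a difference against the spread between duplicates, which was pooled over the groups and moderated across genes, although the groups differed in it. The main result used the threshold of 0.05. Alternatives were other scalings and filters, DESeq2 1.42.0, limma 3.58.1 (voom with sample weights), all 12 libraries, a replicate block, and leaving out each library. The script was tested on simulated data.

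Gene names, positions, and upstream windows came from NCBI RefSeq on R64, which matched 6048 of 7126 IDs. Named genes were the 12 highest and 12 lowest rate dependences among called genes that averaged 50 counts or more and whose strain differences at the 2 rates did not overlap between libraries, the 6 highest and 6 lowest with opposite strain effects, up to 4 called members of each list, and CWH41, PDI1, and TPI1. Other genes were added for their role in a list after their values had been seen. The rule, the gene lists, and the tests were chosen with earlier results of these data known, and the copper and zinc lists and the TTTGCTC search were added after the present values had been seen. TMM sets the level at which a typical gene does not change, so rate dependences are relative to it.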

Additional observations from a re-analysis of the deposited data

Results flagged for a closer look

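The count of 226 genes whose B184 strain effect differed between 0.2/h and 0.1/h, and that of 3134 genes whose rate response differed between B184 and MH34, are listed because each counts effects that differed between groups by a test. The first is the B184 against AAC contrast at the 2 rates in the fit of 8 libraries, and the second is the contrast of the rates in the 2 strains in the fit of 12 libraries. Both rest on 2 libraries per group. Among the 24 genes with the highest and the lowest rate dependence, 9 also had a rate response that differed between B184 and MH34 by edgeR's test, against 51.9% of all genes tested, so this count is no result about these genes. The rate response of B184 minus that of MH34 was positive for SUL1 (1.87), YER121W (1.11), PCK1 (2.03), and ICL1 (1.45). It was negative for FRE7 (−1.79), FET4 (−1.15), FRE1 (−0.89), CTR3 (−0.79), and VMR1 (−0.74). For these 9 genes the values are log2 differences of 2 rate responses and not of levels.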

How the results depend on the processing

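None of the 226 calls changed direction in a setting where it had a value (220 had one with at least 10 counts in every library), while the number of calls varied. The strain differences of these genes did not overlap between the rates, so a change of direction was hardly possible. Of the 66 named genes' values under the alternatives, 917 kept their side of the threshold, 269 lost it, 1 gained it, and none reversed. Calls numbered 358 (162 lower) with DESeq2, 142 (79 higher) with the replicate block, and 110 (71 higher and 39 lower) with an absolute log2 value of at least 1. They numbered 399 (296 higher) without replicate 1 of AAC at 0.1/h and replicate 2 of B184 at 0.2/h, an alternative chosen after seeing the data. Leaving out 1 library gave 28 to 812 calls (11 to 548 higher, 17 to 264 lower). The causes were not tested, other than that a group of 1 library is assumed to vary like the rest. Calls shared with the 226 were 200 under DESeq2, 204 with 12 libraries, and 138 with the block. The labels give no pairing of samples by the duplicates' numbers, and deviations of same-numbered libraries correlated between −0.302 and 0.103. Whether same-numbered libraries shared a batch was not tested. RLE size factors gave 217 calls and library totals 264, with 48.8% and 68.2% higher.

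The strain effect passed in 444 genes at 0.2/h and 380 at 0.1/h with an absolute log2 value of at least 1, and in 744 to 2505 and 1071 to 2312 genes without 1 library. The rate response passed in 1003 genes of B184 and 1110 of AAC with that minimum, and the difference between B184 and MH34 in 845. Depth limits genes of few counts, and 2 libraries per group limit all errors.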
